A study of Homo sapiens with 3 samples.

Results

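The genes of the ephrin, slit and netrin guidance systems were examined in H660 cells, a parental human neuroendocrine prostate cancer cell line, exposed to the HSP70 inhibitor JG231. The 40 genes were taken by symbol and comprise 17 ligands (EFNA, EFNB, SLIT, NTN and NTNG) and 23 receptors (EPHA, EPHB, ROBO, UNC5 and DCC), out of 58735 genes in the table. The 3 libraries are 1 from cells given the DMSO vehicle, 1 from cells given 2.5 μM JG231 and 1 from cells given 5 μM JG231, each for 24 h and each from the unmodified line. Values are FPKM, fragment numbers scaled to gene length and sequencing depth, so that levels of different genes can be compared. There was 1 library per condition, so no standard deviation, no test and no p-value is given, and every difference is one between single libraries.

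Guidance molecules steer growing axons and also move and sort other cells. Ephrins are held at the cell surface and bind Eph receptor tyrosine kinases on neighbouring cells, ephrin-A ligands through a lipid anchor and mostly EphA receptors, ephrin-B ligands through a transmembrane stretch and mostly EphB receptors. Slits are secreted and repel through ROBO receptors, while netrins are laminin-like secreted proteins that attract through DCC and repel through UNC5 receptors. Netrin-G proteins are lipid-anchored relatives that bind NGL proteins at synapses and not DCC.

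The sequences just before the start of 4 members are given because these members stood out by a rule of size. They had the largest differences from DMSO, by the smaller of both doses, among members with at least 20 fragments in every library and a promoter in the RefSeq table of GRCh38.p14. The 250 bases before the first listed start are printed 5′ to 3′, with the GC box (GGGCGG on either strand, overlapping matches included) in capitals.
EFNA1, chr1:155127626-155127875, plus strand: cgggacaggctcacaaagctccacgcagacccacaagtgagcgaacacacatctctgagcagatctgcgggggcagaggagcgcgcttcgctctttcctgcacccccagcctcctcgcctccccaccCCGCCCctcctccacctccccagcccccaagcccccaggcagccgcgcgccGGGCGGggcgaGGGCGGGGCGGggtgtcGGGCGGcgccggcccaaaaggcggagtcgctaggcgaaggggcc
EFNA4, chr1:155063490-155063739, plus strand: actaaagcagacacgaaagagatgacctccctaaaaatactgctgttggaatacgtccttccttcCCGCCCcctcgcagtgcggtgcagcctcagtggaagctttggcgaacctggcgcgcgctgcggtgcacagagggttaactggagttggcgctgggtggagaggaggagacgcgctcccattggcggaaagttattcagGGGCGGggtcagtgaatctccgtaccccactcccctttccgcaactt
SLIT2, chr4:20251655-20251904, plus strand: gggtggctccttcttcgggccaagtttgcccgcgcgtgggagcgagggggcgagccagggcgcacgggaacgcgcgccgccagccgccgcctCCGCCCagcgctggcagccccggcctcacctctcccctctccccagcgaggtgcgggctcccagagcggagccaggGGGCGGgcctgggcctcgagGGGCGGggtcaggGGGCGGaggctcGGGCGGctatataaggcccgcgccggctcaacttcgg
EPHB1, chr3:134795010-134795259, plus strand: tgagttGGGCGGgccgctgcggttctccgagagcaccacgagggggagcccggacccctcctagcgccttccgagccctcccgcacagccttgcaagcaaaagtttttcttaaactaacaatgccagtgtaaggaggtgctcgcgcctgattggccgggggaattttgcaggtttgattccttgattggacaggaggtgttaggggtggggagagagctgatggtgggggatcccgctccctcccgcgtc

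The first of these genes was higher in both JG231 libraries and the other 3 were lower. GC boxes were in all 4, with 5 matches in EFNA1, 2 in EFNA4, 5 in SLIT2 and 1 in EPHB1. A GC box was found in 16 of the 17 members over 1 FPKM that have a promoter in the table. The share among 9761 promoters of protein-coding genes over 1 FPKM was 68.4%. Of all 33 members with a promoter 25 had a GC box, against 42.3% of all 27305 promoters. The E-box CACGTG, the core letters bound by MYC and MAX proteins, was in none of these 17 windows, in 1 of all 33 members with a promoter (EPHA8), in 9.14% of the protein-coding promoters and in 6.49% of all. TGATGNAA, the core of the element shared by CEBP and ATF proteins, was in none of the 33 members and in 1.25% and 3.19% of the same promoter sets. TATAAA was in 1 of the 33 members (EFNB2), against 5.26% and 11.1%. Both strands were searched for each motif. These matches describe letters in a window and are not evidence of binding.

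The libraries held about 16.1 M fragments in DMSO, 20.4 M at the lower dose and 24.1 M at the higher dose, read from the steps of the FPKM values. Mitochondrial genes made up 39.8%, 24.1% and 28.8% of the summed FPKM in the same order. The neuroendocrine markers CHGA, CHGB, SYP, ENO2, NCAM1 and INSM1 were over 1 FPKM in every library, and MYCN was at or under 0.69 FPKM. CHGA had 46.0, 15.0 and 12.7 FPKM and CHGB 20.46, 10.01 and 7.44 FPKM in DMSO, 2.5 and 5 μM, so both were lower beside most members. SYP, at 17.7, 13.0 and 14.8 FPKM, and ENO2, at 37.0, 30.8 and 27.8 FPKM, were lower by less, and INSM1 had 13.4, 16.3 and 10.5 FPKM. The part of these markers in the members' values was not tested. In bulk RNA, fewer cells of a type and less RNA per cell cannot be told apart. The prostate luminal markers KLK3 and TMPRSS2 did not exceed 0.32 FPKM, although the labels call the cells prostatic adenocarcinoma, and KLK2 was at 0. Of 7 endothelial markers, CDH5 alone was over 1 FPKM, with a list sum of 5.15, 0.77 and 0.58 FPKM, and PECAM1, TEK and CLDN5 were at 0 throughout. The 6 fibroblast markers summed to 0.84 to 1.54 FPKM and the 4 immune markers to at most 0.28 FPKM. Of genes with at least 50 fragments at 2.5 μM, 132 of 12983 were listed at 0 at 5 μM, and 96 of 13334 the other way round. Of 13423 genes with at least 50 fragments in DMSO, 104 were at 0 at 2.5 μM, EFNA2 among them, and 348 were at 0 at 5 μM, EPHA4 among them, so a 0 in a single library is uncertain. Fragments may be PCR copies, and intervals given here cover counting error only.

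Of the 40 members, 23 were over 1 FPKM in at least 1 library, 12 ligands and 11 receptors. In DMSO the highest levels were those of EFNA1 (29.7 FPKM), ROBO1 (26.4 FPKM), EPHB1 (13.0 FPKM), NTNG2 (12.2 FPKM), EFNB3 (11.5 FPKM) and EPHA7 (10.5 FPKM). The DMSO library was the highest of the 3 for 19 of the 23 genes and the lowest for EFNA1, EPHA6 and UNC5B, against 45.4% and 39.2% of the 16347 genes over 1 FPKM in at least 1 library. Genes that exceed 1 FPKM in DMSO alone add to the first count. Among genes over 1 FPKM in every library, DMSO was the highest for 14 of 17 members and for 38.9% of 11381 genes.

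**Figure D1:**
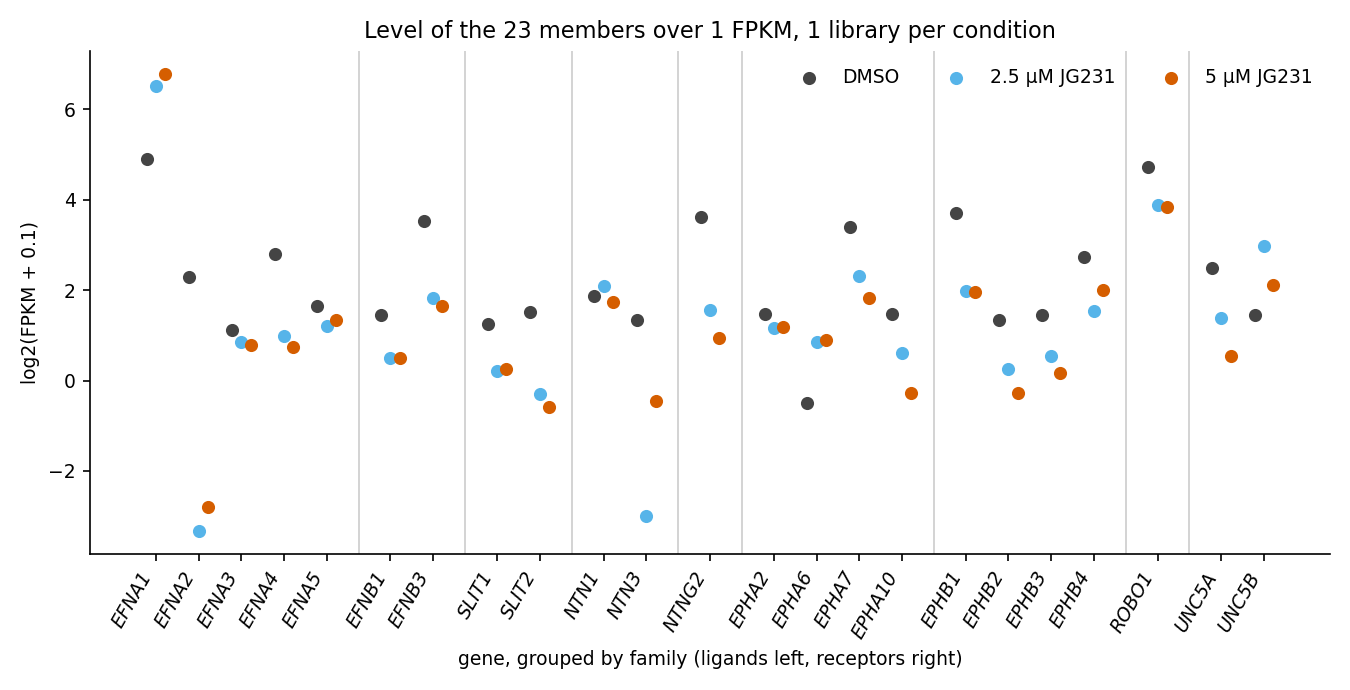
Level of the 23 members over 1 FPKM in at least 1 library, as log2(FPKM + 0.1), with 1 point per library and genes grouped by family. The DMSO point is the highest for 19 genes, and EFNA1, EPHA6 and UNC5B are the genes in which it is the lowest.

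A change is log2((FPKM + 0.1) in JG231 over (FPKM + 0.1) in DMSO), which understates changes of low genes, and a gene was called higher or lower past 0.25 on this scale if either library exceeded 1 FPKM. At 2.5 μM 19 of the 23 members that passed this filter were lower and 3 were higher, while 43.4% of the 15746 genes that passed were lower and 36.4% higher. At 5 μM the counts were again 19 and 3 of 23, and over 15765 genes 45.1% were lower and 36.5% higher. Rescaled without mitochondrial and small RNA genes, 59.7% of all genes were lower and 22.98% higher at 5 μM, and 20 members were lower. Both doses share the DMSO library, so the second count is no independent repeat of the first. With a limit of 1 on the log2 scale, 12 members were lower and 3 higher at 2.5 μM, against 21.7% and 12.9% of all genes. At 5 μM 13 were lower and 2 higher, against 24.3% and 14.7%.

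The filter admits genes that are over 1 FPKM in only 1 of the libraries compared, so such genes were likely to differ. At 2.5 μM 3 members passed through DMSO alone and 1 through JG231 alone, and at 5 μM 5 and 1 did. Those through DMSO alone were EFNA2, SLIT2 and NTN3 at both doses, and also EPHA10 and EPHB2 at 5 μM. The member through JG231 alone was EPHA6. Among members over 1 FPKM in both libraries, the lower dose had 16 of 19 lower and the higher dose 14 of 17, shares of 84.2% and 82.4%. The same shares over all genes were 34.6% and 35.8%. The median change of the 23 members was -1.04 at 2.5 μM and -1.27 at 5 μM, against -0.08 and -0.11 over all genes that passed. As no replicate error exists, each gene got a spread, a robust SD (from the median absolute deviation) of log2 differences between 5 and 2.5 μM among its 500 closest genes by level. It ran from 0.23 for EFNA1 to 1.16 for NTN3. Differences from DMSO exceeded the gene's spread at both doses and in 1 direction for 19 of the 23, against 48.9% of all genes over 1 FPKM in at least 1 library, and those of EFNA3, EFNA5, EPHA2 and NTN1 did not. Among genes over 1 FPKM in every library the count was 13 of 17 members, against 49.2% of all genes. Which members pass depends on the processing. A pseudocount of 1 left 12 of the 23, centring on the median gene took out SLIT1 and EPHA10, removal of the length trend took out these and EPHB2, and the rescaling took out UNC5B and brought in EFNA5.

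**Figure D2:**
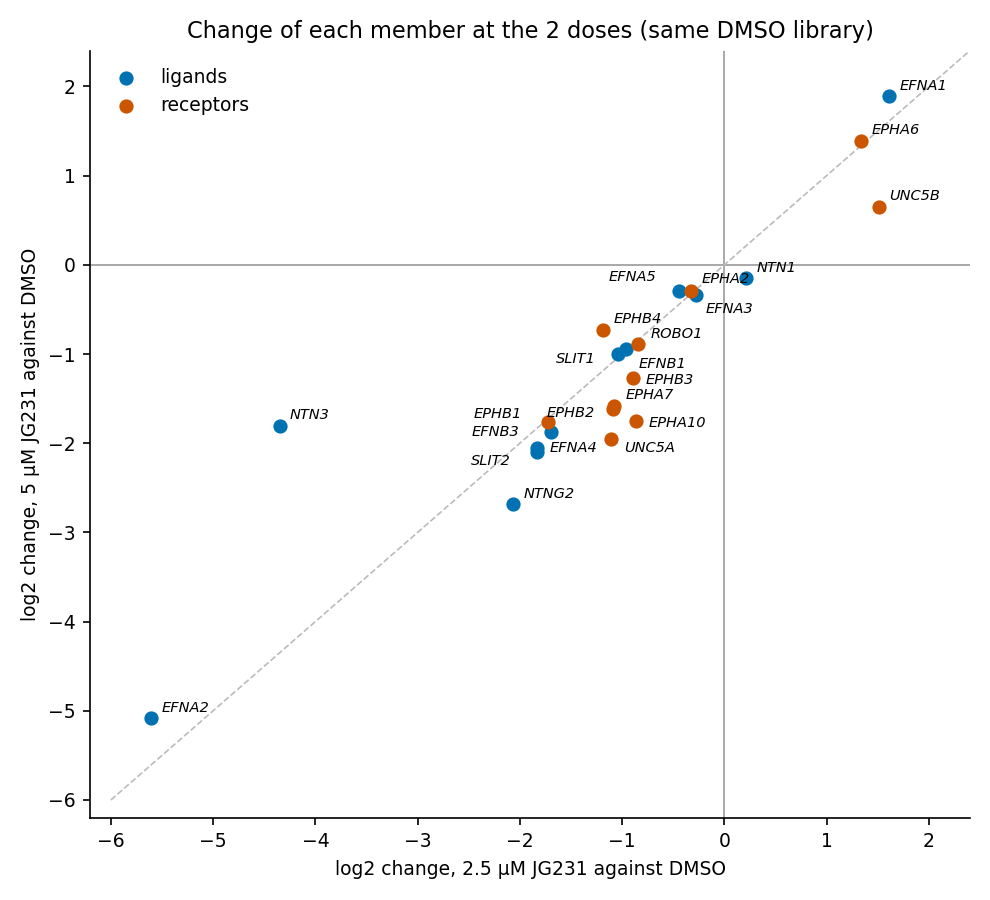
Log2 change against DMSO at 2.5 μM (x axis) and 5 μM JG231 (y axis) for the 23 members, ligands in blue and receptors in orange, with the line of equal change dashed. EFNA1, EPHA6 and UNC5B lie in the upper right, 19 genes lie in the lower left, NTN1 lies near 0, and EFNA2 and NTN3, which have at most 3 fragments in at least 1 JG231 library, lie farthest to the lower left.

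Where 3 values follow each other, they are in the order DMSO, 2.5 μM and 5 μM. Among the ephrin-A ligands, EFNA1 differed in direction from the rest. EFNA1, a ligand of EPHA2 known as a cytokine-inducible gene, stood at 29.7 FPKM under DMSO, 90.9 FPKM under the lower and 110.5 FPKM under the higher dose. These levels were 3.06-fold and 3.72-fold the DMSO level, with log2 changes 1.61 and 1.89 (spread 0.23). EFNA4 stood at 6.89 FPKM under DMSO, 1.87 FPKM under the lower and 1.58 FPKM under the higher dose, 3.69-fold and 4.36-fold lower, with log2 changes -1.83 and -2.06 (spread 0.49). Both JG231 libraries were therefore above DMSO for EFNA1 and below it for EFNA4, although the genes are close neighbours on the same strand of chromosome 1. On GRCh38, EFNA4 (ENSG00000243364) lies at chr1:155063737-155069553, EFNA3 (ENSG00000143590) at chr1:155078837-155087538 and EFNA1 (ENSG00000169242) at chr1:155127876-155134899. EFNA3, between them, had 2.08, 1.70 and 1.63 FPKM, and its log2 changes of -0.28 and -0.33 were within its spread of 0.69. Centred on the median gene, EFNA3 was at -0.20 and -0.22, inside the limit of 0.25. Of the exons of EFNA3 43.9%, and of those of EFNA4 15.0%, overlap the annotated readthrough gene EFNA4-EFNA3, which is listed at 0 in each library, so reads from the shared exons are of uncertain assignment.

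EFNA2 had 4.78 FPKM in DMSO, was listed at 0 at 2.5 μM and had 0.044 FPKM at 5 μM. About 186 fragments stood behind the DMSO value and 3 or fewer behind the 5 μM value. The 95% counting interval of the log2 ratio to DMSO lay at or below -5.98 at 2.5 μM, if the 0 listed there is right, and ran from -8.83 to -4.97 at 5 μM. EFNA5 had 3.02, 2.19 and 2.44 FPKM, log2 changes of -0.44 and -0.30 within its spread of 0.61.

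The ephrin-B ligand EFNB3 stood at 11.5 FPKM under DMSO, 3.46 FPKM under the lower and 3.06 FPKM under the higher dose, log2 changes -1.70 and -1.87 (spread 0.43). EFNB1 had 2.63 FPKM in DMSO and 1.30 and 1.32 in the JG231 libraries, log2 changes of -0.96 and -0.94. Both were below DMSO at each dose, with the JG231 libraries close to each other. EFNB2, the partner of EPHB4 in the separation of arteries and veins, went the other way at a level under 1 FPKM, with 0.11, 0.39 and 0.60 FPKM from about 9, 40 and 72 fragments.

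Of the slits and netrins over 1 FPKM, NTN1 was the one not lower at both doses. SLIT2 and NTN3 passed the filter through DMSO alone, so their lower calls were likely. Of those over 1 FPKM in every library, SLIT1 and NTNG2 were lower and NTN1 was not. SLIT2 stood at 2.77 FPKM under DMSO, 0.71 FPKM under the lower and 0.57 FPKM under the higher dose, log2 changes -1.83 and -2.10 (spread 0.95). SLIT1 had 2.29, 1.06 and 1.09 FPKM, 2.15-fold and 2.10-fold lower, with a spread of 0.91 in log2. SLIT3 was at 0 in every library, which at 3 fragments allows up to 0.013 FPKM in DMSO. NTN1, the best known netrin, had 3.58, 4.16 and 3.23 FPKM, above DMSO at 2.5 μM and below it at 5 μM. Its log2 changes of 0.21 and -0.15 were within its spread of 0.48. NTN3 had 2.44 FPKM in DMSO, 0.025 at 2.5 μM from about 1 fragment and 0.63 at 5 μM from about 33 fragments. The log2 ratio of NTN3 had a counting interval of -12.1 to -4.25 at 2.5 μM, and of -2.59 to -1.37 at 5 μM. Both JG231 libraries were below DMSO in NTN3, the lower dose by more. NTNG2, a netrin-G that binds LRRC4 at synapses, stood at 12.2 FPKM under DMSO, 2.83 FPKM under the lower and 1.81 FPKM under the higher dose, 4.29-fold and 6.71-fold lower, with log2 changes -2.06 and -2.68 (spread 0.41).

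Among the EphA receptors, EPHA7 was the most abundant in each library. EPHA7 stood at 10.5 FPKM under DMSO, 4.89 FPKM under the lower and 3.44 FPKM under the higher dose, log2 changes -1.08 and -1.58 (spread 0.39). EPHA10, a pseudokinase, had 2.69, 1.43 and 0.73 FPKM, log2 changes -0.86 and -1.75 (spread 0.83). EPHA2, the main receptor of ephrin-A1, had 2.69, 2.12 and 2.18 FPKM, and its log2 changes of -0.33 and -0.29 were within its spread of 0.65. EPHA2 was thus past the limit of 0.25 but not past its spread in the libraries in which its ligand EFNA1 was higher. Centred on the median of all genes, it was within the limit at both doses, at -0.248 and -0.18. Of the 4 EphA genes over 1 FPKM, EPHA6 was the one with higher levels, with 0.61 FPKM under DMSO and 1.70 and 1.77 FPKM under the lower and higher dose. EPHA6 passed the filter at both doses through JG231 alone, so a call of higher was likely. Its log2 changes were 1.34 and 1.39 against a spread of 0.91. With a pseudocount of 1 they were 0.74 and 0.78, within that spread. Of the exons of EPHA6, 11.0% overlap another annotated gene on the same strand, listed at 0.

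All 4 EphB receptors over 1 FPKM were lower at both doses, although EPHB2 passed the filter at 5 μM through DMSO alone. EPHB1 (ENSG00000154928, chr3:134795260-135260467) had 13.0 FPKM in DMSO and 3.86 and 3.76 in the JG231 libraries, log2 changes -1.72 and -1.76 (spread 0.34). EPHB4, the receptor of EFNB2, had 6.54, 2.81 and 3.91 FPKM, log2 changes -1.19 and -0.73 (spread 0.46). EPHB2 had 2.44, 1.09 and 0.73 FPKM, log2 changes -1.09 and -1.61 (spread 0.89). EPHB3 had 2.62, 1.36 and 1.03 FPKM, log2 changes -0.89 and -1.27 (spread 0.75). Of these 4, EPHB4 alone had a higher level at 5 μM than at 2.5 μM.

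ROBO1, the one slit receptor over 1 FPKM, stood at 26.4 FPKM under DMSO, 14.7 FPKM under the lower and 14.2 FPKM under the higher dose, log2 changes -0.84 and -0.89 (spread 0.29). Its chromosome 3 gene (ENSG00000169855, chr3:78597239-79767998) supplied at least 99.2% of the ROBO FPKM in each library. The netrin receptors differed in direction. UNC5A stood at 5.55 FPKM under DMSO, 2.52 FPKM under the lower and 1.35 FPKM under the higher dose, log2 changes -1.11 and -1.96 (spread 0.59). UNC5B, a dependence receptor and a known p53 target, had 2.64, 7.72 and 4.22 FPKM, log2 changes 1.51 and 0.65 (spread 0.45). Rescaled without mitochondrial and small RNA genes, its change at the higher dose was 0.28, within that spread. UNC5B supplied 31.9% of the FPKM of UNC5 genes and DCC in DMSO, and 75.0% and 75.7% of it at the lower and higher dose. The antisense gene UNC5B-AS1, within UNC5B on chromosome 10, had 1.14, 8.82 and 7.29 FPKM, and it was looked at after the values of UNC5B were seen. In the annotation used here the exons of UNC5B share no base with those of UNC5B-AS1. The strand setting of the counting is not known, and unspliced reads of the pair may not be fully separated.

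The other 17 members did not exceed 0.62 FPKM in any library. SLIT3, EPHB6, ROBO4 and UNC5D were at 0 in each of the 3. DCC, the attractive netrin receptor, was at 0.014, 0.030 and 0 FPKM, which is at most 8 fragments. EPHA1 was at 0.12, 0.39 and 0.55 FPKM, and 82 bp of its exons overlap ZYX on the other strand, whose levels were 5.30, 17.0 and 30.6 FPKM. EPHA4, a receptor for both ephrin classes, had about 58 fragments in DMSO and 56 at 2.5 μM but was listed at 0 at 5 μM. If that 0 is right, the 95% counting interval of its log2 ratio to DMSO lay at or below -4.51. ROBO3 was the reverse, at 0 in DMSO and at 2.5 μM and with about 20 fragments at 5 μM. NTN4 had 0.52, 0.58 and 0.62 FPKM, and EPHA3 had 0.13, 0.16 and 0.20 FPKM. NTNG1 had 0.50, 0.49 and 0.21 FPKM. NTN5 had 0.24 FPKM in both DMSO and 2.5 μM and 0 at 5 μM, and UNC5C had 0.076, 0.028 and 0 FPKM. EPHA5, EPHA8 and ROBO2 stood on at most 5 fragments in any library.

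Ligands and receptors were then compared over the 3 libraries. The median change of the 12 ligands that passed the filter was -1.37 at 2.5 μM and -1.40 at 5 μM, and that of the 11 receptors was -0.89 and -1.27. Of these ligands 3 passed through DMSO alone at each dose. Of the receptors 2 did so at 5 μM, and 1 passed through JG231 alone at each dose. Among genes over 1 FPKM in both libraries compared the order was the other way round, with ligand medians of -0.96 and -0.94 and receptor medians of -0.99 and -1.08. The order of ligands and receptors therefore depends on the filter, and no difference between them is read from these medians. Of the ligands 10 of 12 were lower past 0.25 at both doses and of the receptors 9 of 11, against 35.8% of all genes over 1 FPKM in at least 1 library, while 3 members and 27.3% of these genes were higher at both. Both doses share the DMSO library. EFNA1 weighed heavily in the summed levels. Summed ligand FPKM was 85.1 in DMSO, 111.9 at 2.5 μM and 129.3 at 5 μM, and EFNA1 made up 34.9%, 81.2% and 85.4% of it. Without EFNA1 the ligand sum was 55.5, 21.0 and 18.8 FPKM, 2.64-fold and 2.95-fold lower than DMSO. Summed receptor FPKM was 76.5, 45.2 and 38.2, and the JG231 sums were 0.591 and 0.499 of that in DMSO. The ratio of ligand to receptor FPKM was 1.11 in DMSO, 2.48 at 2.5 μM and 3.39 at 5 μM with EFNA1, and 0.73, 0.46 and 0.49 without it.

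The ratios were also taken within the families that bind each other. The ephrin-A over EphA ratio was 2.70, 8.70 and 13.1 in DMSO, 2.5 μM and 5 μM, and 0.97, 0.52 and 0.64 without EFNA1. The ephrin-B over EphB ratio stayed between 0.53 and 0.58, as the ligand sum (14.2, 5.15 and 4.97 FPKM) and the receptor sum (24.6, 9.13 and 9.43 FPKM) were lower by like factors. The slit over ROBO ratio was 0.19, 0.12 and 0.12. The netrin over UNC5 and DCC ratio was 0.82, 0.49 and 0.80.

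**Figure D3:**
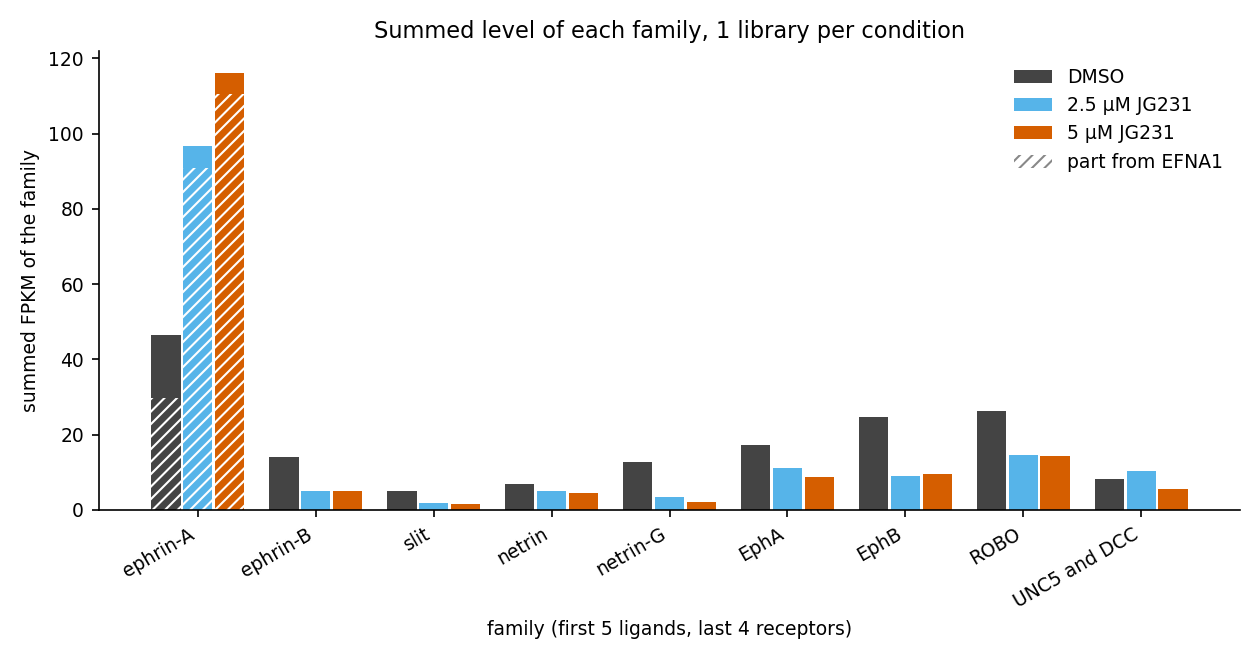
Summed FPKM of each ligand and receptor family in the 3 libraries, with the part of the ephrin-A sum that comes from EFNA1 hatched. The ephrin-A bars increase from 46.4 to 116.2 FPKM through EFNA1, while every other family but that of UNC5 and DCC is lower in both JG231 libraries than in DMSO.

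The JG231 libraries were compared with each other to see whether the higher dose went further. Of 20 members over 1 FPKM in either of them, 8 were lower at 5 μM than at 2.5 μM past 0.25 and 2 were higher, against 30.1% lower and 26.8% higher of 14197 genes. The 2 higher genes were EFNA1 and EPHB4. Of the 11 receptors 6 were lower, with a median of -0.38, and of the 9 ligands 2 were, with a median of -0.05. Of these receptors 2 passed through the 2.5 μM library alone. Among genes over 1 FPKM in both JG231 libraries, 4 of 9 receptors and 2 of 9 ligands were lower, both with a median of -0.05, so no gap between receptors and ligands is read from these medians. No member passed a log2 difference of 1 between the doses under this filter. Past that difference but under the filter in both libraries were NTN3, with about 1 and 33 fragments, and EPHA4, with about 56 and 0. So were NTN5, with about 15 and 0 fragments, and ROBO3, with 0 and about 20.

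Both JG231 libraries showed lower values for longer transcripts over all protein-coding genes, and the receptors over 1 FPKM have long transcripts, with a median of 5477 bp against 3291 bp for protein-coding genes that passed at 2.5 μM. The ligand median of 3259.5 bp was close to the latter. After the trend was removed by lowess, the member median was -0.82 at 2.5 μM and -0.99 at 5 μM. The ligand median was -1.27 and -1.28 and the receptor median -0.74 and -0.99. EFNA1, whose transcript is short at 1552 bp, then had changes of 1.35 and 1.51, and EPHA6, whose transcript is the longest of the 23 at 16254 bp, had 1.79 and 2.18. NTN1, at 0.40 and 0.19, was then above the limit of 0.25 at 2.5 μM. EFNA5, with -0.02 at 5 μM, and EPHA2, with -0.18, were then within the limit of 0.25 at that dose. The part of transcript length in the lower values was not tested further.

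**Figure D4:**
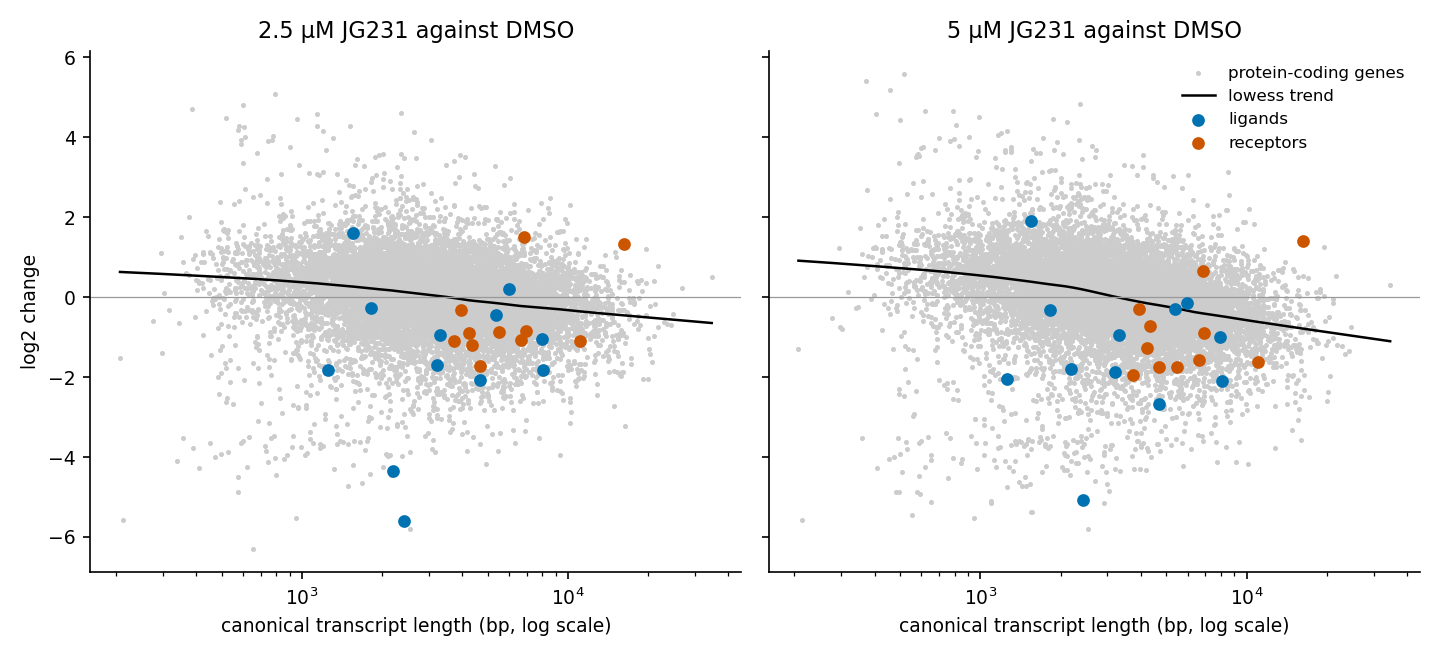
Log2 change against DMSO (y axis) by canonical transcript length in bp (x axis, log scale) at 2.5 μM (left) and 5 μM JG231 (right), with protein-coding genes in grey, their lowess trend as a line, ligands in blue and receptors in orange. Most members lie below the trend at their length, and EFNA1, EPHA6, UNC5B and NTN1 lie above it at both doses.

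Partners of these ligands and receptors were taken as a list of 42 coreceptors, alternative ligands and intracellular effectors, of which 30 passed the filter. At 2.5 μM 8 were higher and 15 lower, with a median of -0.22, and at 5 μM 8 were higher and 18 lower, with a median of -0.52. The shares over all genes were 36.4% higher and 43.4% lower at 2.5 μM, near those of the partners in the lower direction, and 36.5% and 45.1% at 5 μM. By the rule of more than a 2-fold difference at both doses 7 of the 30 qualified, 5 lower and 2 higher, against 16.6% lower and 8.54% higher of all genes over 1 FPKM in at least 1 library. Both counts were near those shares. FLRT1, DRAXIN and DOCK1, 3 of the 5 lower ones, passed the filter through DMSO alone, and GPC1 did so at 5 μM. FLRT1, a surface protein that binds UNC5 receptors, had 1.89, 0.037 and 0 FPKM, and DRAXIN, a secreted ligand of DCC, had 1.79, 0.20 and 0.079 FPKM. DOCK1, a RAC activator, had 2.78, 0.64 and 0.57 FPKM, and GPC1, a glypican that binds slits, had 5.72, 2.51 and 0.88 FPKM. The adaptor NCK2 was higher, with 13.5, 41.3 and 45.3 FPKM, as was CHN1, which inactivates RAC, with 2.30, 4.96 and 6.20 FPKM. The seventh was NEO1, a netrin receptor related to DCC, with 6.65, 3.14 and 2.73 FPKM. CDC42, a GTPase that nearly every cell uses, was listed at only 0.22 to 0.30 FPKM, so a low value in a single row is uncertain.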

How the data were processed

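RNA from 3 samples of H660 cells was sequenced by the authors, 1 library per condition (DMSO, 2.5 μM and 5 μM JG231, 24 h). The authors deposited gene-level FPKM for 58735 Ensembl genes. The paper's methods name HISAT and StringTie and also a pipeline of TopHat and Cufflinks, and the submitters' processing notes name HISAT2, featureCounts, GRCh38 and hg38 with no role. Versions, the annotation release and the strand setting are not given in the sources used here. Per the labels the kit kept strand and used less RNA than in the methods.

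Identifiers were looked up in GENCODE release 44 (58207 of 58735, all 40 members), which gave exon and canonical transcript lengths. In genes with a single transcript and under 50 fragments, FPKM times exon length lay within 0.1 of a whole multiple of 1 fragment for 86.4% to 90.3% of genes, which gave depth. Fragment numbers are approximate, and intervals (95%, conditional binomial) and floors (3 fragments) cover counting error only. No count model was used, since FPKM values are not counts. Calls used a pseudocount of 0.1 and limits of 0.25 and 1 on the log2 scale with FPKM over 1 in either library. Values in all 3 libraries are given for members over 1 FPKM and for partners with more than a 2-fold difference at both doses. At most 6 partners were planned, and NEO1 was given beyond these. Members and lists were chosen with earlier results of these data known. Some marker genes are not reported here. Promoters are RefSeq sequences of the first listed start of each gene, for 33 of 40 members. Scripts were tested on simulated data. The software was statsmodels 0.14.6, pandas 2.3.3, matplotlib 3.10.9, scipy 1.17.1 and numpy 2.4.6 under Python 3.11.15. Alternatives changed the pseudocount, filter, limit, scaling, length trend, genes at 0 and repeated symbols.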

Additional observations from a re-analysis of the deposited data

How the results depend on the processing

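More members were lower than higher, and the medians stayed below 0, under each alternative run. Centring on the median gene and a pseudocount of 1 each left 16 members lower at 5 μM and 17 at 2.5 μM, and took the calls of EFNA3 (-0.22 and -0.23), EFNA5 (-0.19 and -0.22) and EPHA2 (-0.18 and -0.22) at 5 μM. At 2.5 μM both took those of EFNA3 and EPHA2, and centring added NTN1 to the higher members, 4 in all, at 0.29. With a mean FPKM of at least 5, where 7 members passed, 6 were lower and 1 higher at 5 μM and 5 lower and 2 higher at 2.5 μM, against 29.0% and 47.6% of all genes at 5 μM and 28.1% and 46.2% at 2.5 μM. The medians at 5 μM were then -1.58 for members and -1.87 for ligands, and that of ligands at 2.5 μM -1.70. Without a filter, 7 of 40 members were higher and 23 lower at 5 μM, against 12.2% and 20.8% of all genes, and 6 and 21 at 2.5 μM, against 13.4% and 19.9%. The medians of members, ligands and receptors were -0.53, -0.95 and -0.20 at 5 μM and -0.30, -0.44 and -0.20 at 2.5 μM, since genes near 0 enter. With a limit of 1, 12 were lower at 2.5 μM. A pseudocount of 1 gave -0.85, -0.87 and -0.85 at 5 μM, and -0.72 for members and -0.91 for ligands at 2.5 μM. Leaving mitochondrial and small RNA genes out of the scaling moved the median of all genes to -0.51 and -0.39, and the 3 member medians to -1.61, -1.74 and -1.61 at 5 μM and to -1.31, -1.65 and -1.17 at 2.5 μM. That scaling moved the split of all genes to 59.7% lower and 22.98% higher at 5 μM and to 55.7% and 24.7% at 2.5 μM. Removing the length trend gave -0.99 for members and for receptors at 5 μM. Leaving out genes at 0 moved the ligand median at 2.5 μM to -1.04. Of 381 values of single members, 2 had the opposite sign, both of NTN1, which was at 0.19 at 5 μM with the length trend removed and -0.08 at 2.5 μM with the rescaling. No paired analysis was possible because each group has 1 library, and for the same reason no replicate could be left out. At 1 library per condition, genes on few fragments, such as EFNA2 and NTN3, are the least certain.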
